A study of Mus musculus with 32 samples.

Results

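The Rab family and the proteins named after it were followed through the first wave of mouse spermatogenesis. Members were all protein-coding genes whose symbol in GENCODE mouse release M21 starts with Rab and a digit, which gave 69 symbols. Of these, 56 had a row in the juvenile gene table, among 20368 rows in all and 13660 protein-coding rows. The name rule took in 46 Rab GTPases and 10 proteins that are not GTPases but bind or regulate them, namely Rab3gap1, Rab3gap2, Rab3il1, Rab3ip, Rab5if and the Rab11 effectors Rab11fip1 to Rab11fip5, and these 10 are described apart. The other 13 symbols (Rab3c, Rab9b, Rab15, Rab17, Rab19, Rab32, Rab33a, Rab37, Rab38, Rab39, Rab39b, Rab40b and Rab44) had no row, and the highest value of any of them in the transcript table was 2.72 TPM (RSEM's length-corrected share of a library's transcripts) in a juvenile mouse and 0.88 TPM in an adult sample.

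RNA was sequenced from germ cells of male C57BL/6J mice at 8 dpp (days post partum; 3 mice) and at 10, 12, 14, 16 and 18 dpp (5 mice each), each sample being the cells of both testes of 1 mouse. Per the study, further 8 dpp samples were omitted after the data were inspected, because they matched others of their age poorly. The spread among the 8 dpp mice is that of the samples kept. Adult pachytene and diplotene spermatocytes were enriched at 9 weeks of age by STA-PUT, a sedimentation at unit gravity that separates cells by size, in 4 samples that each pooled 6 mice. No mouse carried a transgene or received a treatment. The groups differed in age and, for the adult samples, in the cell preparation and the pooling of mice. No label names a sequencing pool, but index sequences used at 8 to 12 dpp recur at 14 to 18 dpp. If these sets were sequenced as separate pools, pool cannot be told apart from age between them. The adult values were normalized apart.

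Rab proteins are small GTPases that cycle between a GDP-bound form in the cytosol and a GTP-bound form on membranes, where each marks a particular compartment. Exchange factors load them with GTP, GTPase-activating proteins switch them off, a prenyl anchor added by the geranylgeranyl transferase holds them on the membrane, and GDP dissociation inhibitors extract them from it. Male germ cells depend on this traffic for the Golgi-derived acrosome and for the flagellum, while Sertoli cells use it for junction turnover and for digestion of residual bodies.

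The juvenile samples are labelled germ cells, and 8 of 8 Sertoli cell markers (among them Sox9, Amh and Clu) were present in them. Per the study's methods, most cells of each sample were scored as germ cells by microscopy, and the adult preparations were checked by immunostaining. The Sertoli markers' summed level was 6724 to 7591 TPM at 8 dpp, 3222 to 4193 TPM at 18 dpp and 292 to 429 TPM in the adult samples. Clu alone made up most of these sums, with means of 5377, 2899 and 313 TPM. Rhox5, on the same list, went the other way between 8 dpp (36.6 TPM) and 18 dpp (68.4 TPM), and the other markers were lower at 18 dpp. Summed levels of 6 spermatogonial markers went from 925 to 991 TPM at 8 dpp to 410 to 584 TPM at 18 dpp, and those of 8 spermatocyte markers from 210 to 315 TPM to 2993 to 4651 TPM. The 5 peritubular markers summed to 1051 to 1160 TPM at 8 dpp, 524 to 1034 TPM at 18 dpp and 5.57 to 10.7 TPM in the adult samples. At 18 dpp, mice 4 and 5 had the highest Sertoli sums (4134 and 4193 TPM, against 3222 to 3366 TPM in the others). They had the lowest spermatocyte sums (3018 and 2993 TPM, against 4471 to 4651 TPM). Their spermatogonial sums (557 and 584 TPM, against 410 to 425 TPM) and peritubular sums (1006 and 1034 TPM, against 524 to 586 TPM) were the highest too. So were their Leydig, macrophage and endothelial sums. The part of these markers in the results below was not tested. In RNA from mixed cells, fewer cells of a type and less RNA per cell cannot be told apart.

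Rab transcripts were abundant. Over the 28 juvenile mice, 14 of the 56 rows averaged at least 100 TPM, 34 averaged 10 to 100 TPM and 8 averaged under 10 TPM. The summed level of the 46 GTPases was 3242.5 ± 30.9 TPM (SD, n = 3) at 8 dpp, 3307.1 ± 28.01 TPM (n = 5) at 10 dpp, 2911.7 ± 116 TPM (n = 5) at 16 dpp and 2550.5 ± 179 TPM (n = 5) at 18 dpp. It ranged from 3208 to 3266 TPM at 8 dpp and from 2410 to 2767 TPM at 18 dpp, so the groups did not overlap. These sums are of unscaled TPM. Median-of-ratios scaling factors were 0.99 to 1.02 at 8 dpp and 0.84 to 0.97 at 18 dpp, and dividing by them makes the drop smaller. No such sum was computed for other gene sets. The 10 regulators and effectors summed to 404 ± 3.36 TPM at 8 dpp and 447 ± 14.7 TPM at 18 dpp. In the adult samples, whose values were normalized apart, the GTPases summed to 1569 ± 13.1 TPM (n = 4) and the regulators and effectors to 436 ± 12.9 TPM.

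The leading GTPase changed with age. Rab31, which acts between the trans-Golgi network and endosomes, had the highest mean level at 8, 10 and 12 dpp. Rab11a, the main GTPase of recycling endosomes, had it from 14 dpp on. At 12 dpp the mice overlapped between Rab31 (277.7 to 318.13 TPM) and Rab11a (270.9 to 320.23 TPM). Rab31 held 10.7% ± 0.61 (SD, n = 3) of the summed GTPase TPM at 8 dpp, 5.1% ± 0.41 (n = 5) at 18 dpp and 0.6% ± 0.06 (n = 4) in the adult samples. Rab11a and its close relative Rab11b together held 14.7% ± 0.72, 18.3% ± 1.03 and 26.3% ± 0.63 of it. This share grew while the GTPase sum fell. In TPM, Rab11a averaged 266, 274 and 227 and Rab11b 211, 193 and 185. In adult spermatocytes the order was Rab11a (227 ± 7.81 TPM), Rab11b (185 ± 4.37 TPM), Rab1b (166 ± 6.44 TPM), Rab2a (127 ± 8.05 TPM) and Rab6a (87.9 ± 2.53 TPM), and no 2 neighbours in this order overlapped between samples. The last 3 of these act in traffic between the endoplasmic reticulum (ER) and the Golgi or within the Golgi.

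The comparison of 18 with 8 dpp asks which members differ between the start of the series and the age at which the first wave has moved well into meiotic prophase. Of the 56 members, 13 rose, against 31.8% of all rows, and 24 fell, against 36.3% of all rows (limma on log2(TPM + 1), Benjamini-Hochberg adjusted p-value under 0.05 over all 20368 rows). Among protein-coding rows the shares were 33.1% and 41.4%. The median log2 difference was -0.11 over the members and -0.09 over all rows. The GTPases, with 9 higher, 22 lower and 15 not past the threshold, had a median of -0.22, and the regulators and effectors, with 4 higher, 2 lower and 4 not past it, a median of 0.11. In 13 members all 5 mice of 18 dpp lay above all 3 of 8 dpp, which 29.0% of all rows did, and in 22 they lay below, as 32.0% of all rows did.

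The split depends on how the libraries are scaled. The median of all rows moved from -0.09 to 0.05 with median-of-ratios factors, and 19 members then rose and 20 fell (among the GTPases 14 and 18, median -0.05). With quantile normalization it moved to -0.26, and 11 rose and 27 fell (8 and 24, median -0.36). Members with a log2 difference near these medians, such as Rab11b (-0.13 ± 0.06 (SE)), therefore changed direction with the scaling, whereas the 10 members with the largest rises and falls kept theirs under both.

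**Figure D1:**
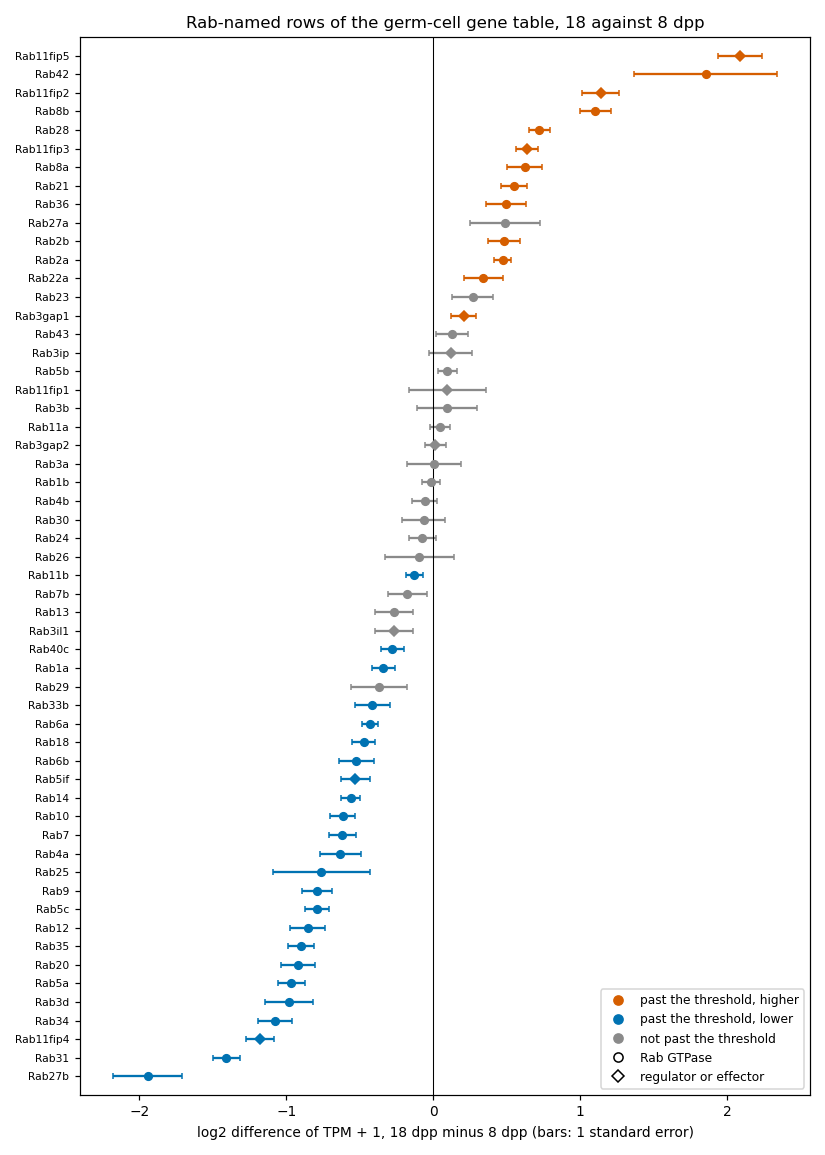
Log2 difference of TPM + 1 between 18 dpp (5 mice) and 8 dpp (3 mice) for the 56 Rab-named rows, with 1 standard error; circles are GTPases, diamonds regulators or effectors, and colour gives the call. The 13 higher rows run from Rab3gap1 (0.21) to Rab11fip5 (2.09) and the 24 lower rows from Rab11b (-0.13) to Rab27b (-1.94).

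The largest rise was that of Rab11fip5 (ENSMUSG00000051343, chr6:85334962-85374634, minus strand, GRCm38), which encodes an effector that binds Rab11 on recycling endosomes. It stood at 17.21, 18.42 and 16 TPM in the 3 mice of 8 dpp and at 101.92, 92.02, 83.87, 58.68 and 55.52 TPM in the 5 mice of 18 dpp. Every mouse of 18 dpp lay far above those of 8 dpp, and mice 4 and 5, the ones with the lower spermatocyte marker sums, were the lowest of their age. The log2 difference was 2.09 ± 0.15 (SE, adjusted p = 2.05e-12), all of it was on 1 transcript, and the adult samples went on to 171.2, 174.91, 156.97 and 185.29 TPM, above every juvenile mouse. Among other rises, mice 4 and 5 were also the lowest at 18 dpp for Rab11fip2 and Rab22a. For Rab2a and Rab28 they were not, and for Rab11fip3 they were the highest.

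Rab11fip2, an effector that links Rab11 to myosin V, measured 19.78, 20.72 and 19.16 TPM at 8 dpp and 51.58, 49.94, 47.1, 39.04 and 38.94 TPM at 18 dpp (log2 difference 1.14 ± 0.13, adjusted p = 7.54e-09). The groups did not overlap, all 3 of its protein-coding transcripts were higher at 18 dpp (from 6.71 to 10.6 TPM, 2.9 to 13.0 TPM and 10.3 to 21.7 TPM), and the adult mean was 68.8 ± 2.31 TPM (SD, n = 4). Rab8b, a GTPase of exocytic transport to the plasma membrane, measured 9.36, 9.69 and 8.98 TPM at 8 dpp and 21.6, 22.11, 22.31, 19.24 and 20.92 TPM at 18 dpp (1.10 ± 0.11, adjusted p = 6.01e-10). Its mice of 18 dpp lay close together and all above those of 8 dpp. Rab28, a GTPase found at cilia, went from 37.4 ± 2.03 TPM (SD, n = 3) to 62.4 ± 4.40 TPM (n = 5), with every mouse of 18 dpp higher (0.72 ± 0.07, adjusted p = 1.07e-09). Rab42, a little-studied member, was low throughout: it was listed at 0, 0.72 and 0.72 TPM at 8 dpp and at 6.86, 9.48, 4.87, 0.87 and 3.14 TPM at 18 dpp, when mouse 4 was barely above the 8 dpp mice (1.85 ± 0.49, adjusted p = 0.00147).

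Among the falls, Rab31 was the most abundant. It measured 342.05, 370.71 and 326.15 TPM at 8 dpp and 112.17, 122.72, 116.32, 151.84 and 151.39 TPM at 18 dpp, with no overlap (log2 difference -1.41 ± 0.09, adjusted p = 2.37e-13). Mice 4 and 5 of 18 dpp, which had the higher Sertoli, spermatogonial and peritubular marker sums, were its highest of that age. Among other falls, the same held for Rab10, Rab12 and Rab18, and not for Rab11b, Rab25, Rab27b and Rab33b. In the adult samples Rab31 was at 7.64, 9.12, 9.82 and 9.3 TPM. Rab27b, which docks secretory granules, had the largest log2 difference (-1.94 ± 0.24, adjusted p = 4.31e-08) but from a low level, 4.48, 2.92 and 4.42 TPM at 8 dpp, to 0.1 to 0.52 TPM at 18 dpp.

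Rab11fip4, an effector shared by Rab11 and Arf GTPases, fell from 84.16, 71.25 and 72.25 TPM to 31.87, 33.62, 29.29, 34.01 and 35.78 TPM (-1.18 ± 0.09, adjusted p = 2.04e-11), the opposite direction to Rab11fip2 and Rab11fip5. Rab34, a GTPase of early ciliogenesis, fell from 113.72, 120.34 and 115.24 TPM to 54.27, 40.78, 49.03, 60.48 and 74.61 TPM (-1.08 ± 0.12, adjusted p = 5.88e-09). Rab3d, a GTPase of secretory granules, fell from 15.04 ± 0.99 TPM (n = 3) to 7.48 ± 2.85 TPM (n = 5; -0.98 ± 0.16, adjusted p = 5.51e-06). In none of these 3 genes did the mice of the ages overlap, and in all 3 mice 4 and 5 were again the highest of the 18 dpp group.

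**Figure D2:**
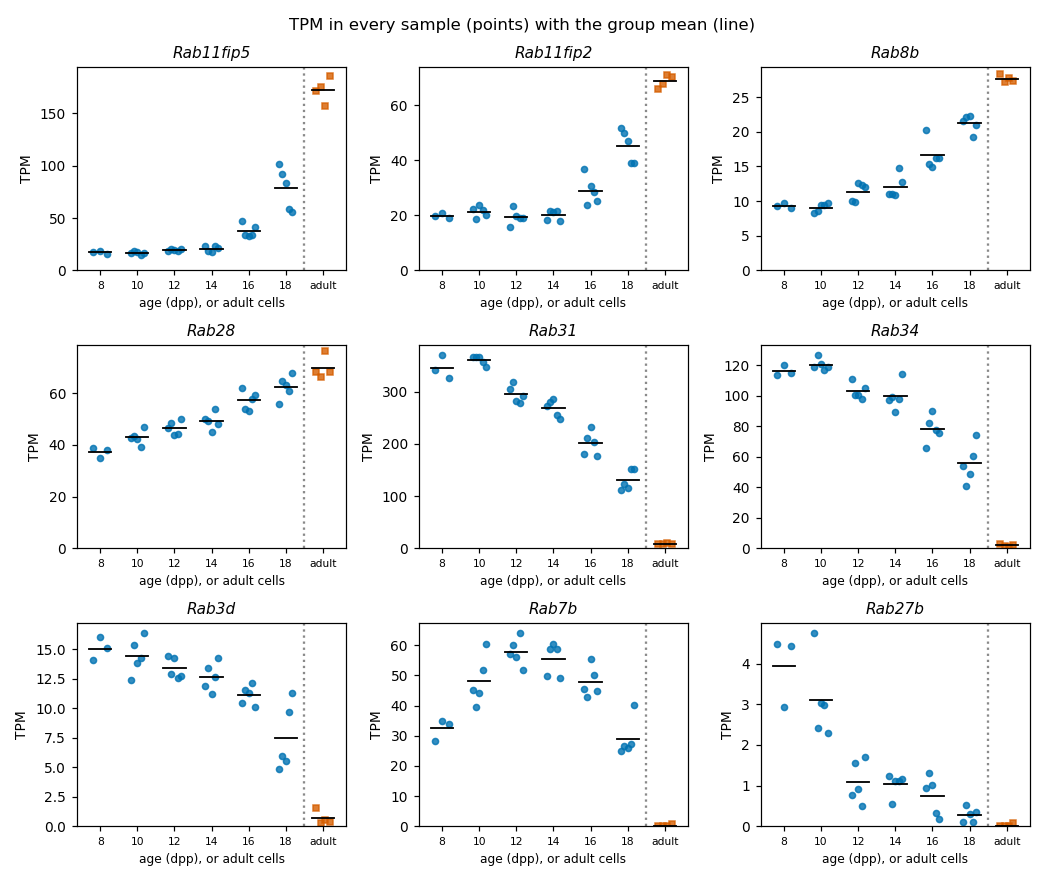
TPM in every sample for 9 members, with blue circles for juvenile mice by age in dpp, orange squares for the 4 adult samples of enriched spermatocytes and black lines for group means; the adult values come from a table normalized apart. Rab11fip5, Rab11fip2, Rab8b and Rab28 are highest at 18 dpp among the juvenile ages, Rab31, Rab34, Rab3d and Rab27b lowest, and Rab7b is highest at 12 dpp (57.9 TPM).

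Promoter sequence was read for the members with the clearest rises and falls. RefSeq windows of 300 bases on GRCm38.p6, from 250 before to 50 after each annotated start, were found for 46 of the 56 members (61 windows). Their median GC content was 63.3%, against 52.7% over all 32851 windows. The GC box GGGCGG, searched on both strands as were all motifs, occurred in 46 of the 61 windows (75.4%, against 35.7% of all windows), in 11 of 13 windows of members that rose, 17 of 22 of those that fell and 18 of 26 of the rest. CCAAT occurred in 41.0% of member windows (37.4% of all), TATAAA in 6.56% (13.6%), the cyclic AMP response element TGACGTCA in 4.92% (1.79%), CNCCTCAG in 11.5% (7.94%) and the MYB motif AACNGTT in 1.64% (4.45%). No 2 of these motifs hold one another, and the windows of 1 gene can share bases. The 250 bases before the start are shown for a pair of members that rose and a pair that fell, each with 1 window: Rab11fip5 (chr6:85374635-85374884), Rab8b (chr9:66919706-66919955), Rab31 (chr17:65772753-65773002) and Rab3d (chr9:21918184-21918433), all on the minus strand and written 5′ to 3′ along the gene, with the letters of any of the motifs in capitals on either strand.
Rab11fip5: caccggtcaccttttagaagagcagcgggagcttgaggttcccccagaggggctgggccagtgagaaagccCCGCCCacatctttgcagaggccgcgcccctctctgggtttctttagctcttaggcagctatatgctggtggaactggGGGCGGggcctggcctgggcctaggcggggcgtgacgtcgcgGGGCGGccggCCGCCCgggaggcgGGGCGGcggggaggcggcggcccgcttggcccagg
Rab8b: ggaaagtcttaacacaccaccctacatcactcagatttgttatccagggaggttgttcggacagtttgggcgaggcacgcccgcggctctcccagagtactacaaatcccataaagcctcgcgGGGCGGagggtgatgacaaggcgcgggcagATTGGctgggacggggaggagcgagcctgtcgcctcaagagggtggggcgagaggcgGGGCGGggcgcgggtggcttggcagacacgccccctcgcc
Rab31: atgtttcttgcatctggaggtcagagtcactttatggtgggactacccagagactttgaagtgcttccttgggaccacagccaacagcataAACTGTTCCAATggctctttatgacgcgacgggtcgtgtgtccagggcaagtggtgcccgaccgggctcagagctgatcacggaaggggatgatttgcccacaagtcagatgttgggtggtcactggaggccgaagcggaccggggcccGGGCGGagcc
Rab3d: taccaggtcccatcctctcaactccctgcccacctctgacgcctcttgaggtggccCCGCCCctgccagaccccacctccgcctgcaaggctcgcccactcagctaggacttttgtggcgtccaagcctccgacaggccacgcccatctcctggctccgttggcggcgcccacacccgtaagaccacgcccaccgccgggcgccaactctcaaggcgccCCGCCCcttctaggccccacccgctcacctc
All 4 sequences hold GC boxes, 5 of them in Rab11fip5. The single AACNGTT among all member windows is in Rab31, where it lies next to a CCAAT box. A match is a run of letters and was not tested as a binding site.

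By role, counts are to be read beside the shares of all rows, 31.8% higher and 36.3% lower, and their median of -0.09. GTPases of the recycling endosome included no member that rose. Of 8, 6 fell, and the group's median log2 difference was -0.60. With median-of-ratios factors the counts became 1 higher and 4 lower. Rab12, which directs recycling receptors to lysosomes, fell from 105 ± 7.31 to 58.7 ± 13.4 TPM, and Rab35, of fast recycling, had the log2 difference -0.90 ± 0.09. Rab14 (-0.56 ± 0.06) and Rab4a (-0.63 ± 0.14) also fell, and so did the low Rab25 (-0.76 ± 0.33, 1.64 to 0.546 TPM). Rab11a stayed between 249.09 and 331.97 TPM in all 28 mice, with a difference of 0.05 ± 0.07 (adjusted p = 0.563). Rab11b went from 199.38, 218.78 and 213.49 TPM to 178.74, 181.04, 199.16, 206.85 and 197.2 TPM. These groups overlapped, and the call (adjusted p = 0.0485) was lost when any of 17 mice was left out (log2 difference -0.17 to -0.10).

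Early endosomes and endocytosis were served by 7 GTPases, of which 4 fell and 2 rose (median -0.79). Rab5c, one of 3 isoforms that drive early endosome fusion, measured 181.66, 183.33 and 177.98 TPM at 8 dpp and 93.88, 90.6, 95.2, 127.66 and 118.37 TPM at 18 dpp (-0.79 ± 0.08, adjusted p = 3.79e-09). Rab5a fell likewise, from 103 ± 6.94 to 52.9 ± 8.74 TPM (-0.97 ± 0.09), while Rab5b was at 57.3 ± 1.65 and 61.3 ± 2.74 TPM (0.10 ± 0.06, adjusted p = 0.172). Rab20, found on phagosomes and endosomes, fell from 70.5, 83.41 and 76.62 TPM to 36.28, 34.96, 36.54, 45.38 and 49.2 TPM (-0.92 ± 0.12). Rab21, of integrin traffic, rose from 28.9 ± 3.36 to 42.7 ± 3.40 TPM (0.55 ± 0.09), and Rab22a, a relative of Rab31, from 31.8 ± 2.69 to 40.7 ± 5.32 TPM (0.34 ± 0.13, adjusted p = 0.0247). The call on Rab22a was lost without mouse 2 or 3 of 8 dpp or without mouse 1 or 3 of 18 dpp (log2 differences 0.31, 0.31, 0.29 and 0.30), and with quantile normalization (0.24).

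In the late endosome and lysosome group of 6, Rab7 and Rab9 fell and Rab36 rose, close to the shares of all rows. Rab7, which matures endosomes and fuses them with lysosomes, went from 196.77, 188.99 and 193.13 TPM to 113.27, 103.17, 115.71, 155.95 and 146.99 TPM (-0.62 ± 0.09, adjusted p = 1.59e-06). Rab9, which returns receptors from late endosomes to the Golgi and was the one X-linked row, went from 44.74, 37.06 and 44.3 TPM to 20.56, 20.78, 23.83, 28.6 and 26.28 TPM (-0.79 ± 0.10, adjusted p = 1.22e-07). Both had groups that did not overlap. In the adult samples Rab9 was at 1.77, 2.63, 2.11 and 1.86 TPM. Rab36, which positions lysosomes, rose from 19.4 ± 1.98 to 27.9 ± 4.52 TPM (0.49 ± 0.14, adjusted p = 0.00239).

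Of 11 GTPases of the ER, Golgi and early secretory pathway, 3 rose and 5 fell (median -0.07). Rab2a, which works between the ER and the Golgi, rose from 108.99, 99.84 and 105.38 TPM to 137.2, 141.63, 147.01, 146.74 and 155.63 TPM (0.47 ± 0.06, adjusted p = 3.41e-08), and Rab2b, its close relative, from 14.96 ± 1.18 to 21.3 ± 2.28 TPM (0.48 ± 0.11). Rab1a, needed for transport out of the ER, fell from 122 ± 5.91 to 96.8 ± 12.5 TPM (-0.34 ± 0.08), while Rab1b was at 129 ± 6.61 and 127 ± 8.31 TPM (-0.01 ± 0.06, adjusted p = 0.848). Rab6a (-0.43 ± 0.05) and Rab6b (-0.52 ± 0.12), which return vesicles within the Golgi, fell, as did Rab18 (-0.47 ± 0.08), found at lipid droplets and the ER, and Rab33b (-0.42 ± 0.12), which takes part in autophagy. With median-of-ratios factors this group had 4 higher and 4 lower.

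Among the 10 GTPases of exocytosis and plasma membrane delivery, 2 rose, 3 fell and 5 did not pass the threshold. Both Rab8 genes rose, Rab8a from 40.84, 30.96 and 31.48 TPM to 58.11, 59.09, 54.8, 53.51 and 41.74 TPM (0.62 ± 0.12, adjusted p = 3.73e-05), with mouse 5 of 18 dpp only just above mouse 1 of 8 dpp. Most of the Rab8a level was on a retained intron, Rab8a-202 (25.7 TPM at 8 dpp and 39.5 TPM at 18 dpp), and the protein-coding Rab8a-201 was at 8.38 and 13.7 TPM. Rab10, which delivers vesicles to the plasma membrane, fell (-0.62 ± 0.08). An antisense gene, Rab10os, averaged 24.5 TPM in the same mice, and without strand information reads of the pair cannot be told apart. Rab3a, a synaptic vesicle GTPase, was at 14.5 and 15.1 TPM (0.01 ± 0.19), its sign turning under quantile normalization (-0.13). Of the cilium-associated GTPases, Rab28 rose, Rab34 fell, and Rab23, which restrains Hedgehog signalling, was at 20.7 ± 1.94 and 25.5 ± 4.99 TPM (0.27 ± 0.14, adjusted p = 0.091). Rab40c, which carries a SOCS box, fell (-0.28 ± 0.08) but not with median-of-ratios factors (-0.10).

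The 10 regulators and effectors moved in both directions. Besides Rab11fip5 and Rab11fip2, Rab11fip3, an effector with a part in cytokinesis, rose from 48.08, 57.68 and 47.51 TPM at 8 dpp to 77.94, 75.39, 75.23, 86.23 and 84.47 TPM at 18 dpp (0.64 ± 0.08, adjusted p = 3.18e-08). Rab3gap1, the catalytic subunit of the Rab3 GTPase-activating complex, rose slightly (0.21 ± 0.08, adjusted p = 0.0331), and its partner Rab3gap2 had 0.01 ± 0.07 (adjusted p = 0.882). Rab5if fell (-0.53 ± 0.10), as did Rab11fip4. Rab3ip, the exchange factor that activates Rab8, was at 37.0 ± 0.57 TPM at 8 dpp, 24.3 ± 1.37 TPM at 14 dpp and 41.9 ± 12.5 TPM at 18 dpp, so the comparison of the ends (0.12 ± 0.15) passed over a lower level between them.

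Over all 6 ages, 51 of the 56 members differed, against 77.6% of all rows (limma F test, adjusted p under 0.05). The age of the highest mean was 8 dpp for 12 GTPases, 10 dpp for 8, 12 dpp for 7, 14 dpp for 6, 16 dpp for 4 and 18 dpp for 9. Calls between neighbouring ages were unevenly spread over the series.

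From 8 to 10 dpp, 3 members rose, against 0.977% of all rows, and 1 fell, against 0.226%. Rab11fip3 rose from 51.1 ± 5.71 to 69.6 ± 4.72 TPM (log2 difference 0.44 ± 0.08, adjusted p = 0.00185), Rab5b from 57.3 ± 1.65 to 69.6 ± 2.09 TPM (0.28 ± 0.06, adjusted p = 0.0188) and Rab7b, which works between late endosomes and the Golgi, from 32.5 ± 3.55 to 48.3 ± 8.18 TPM (0.55 ± 0.13, adjusted p = 0.0316). Rab20 fell from 76.8 ± 6.46 to 53.5 ± 3.69 TPM (-0.51 ± 0.12, adjusted p = 0.0205). The 4 calls became 2 without mouse 1 of 8 dpp, and 1 without mouse 2 or without mouse 3 of that age.

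Between 10 and 12 dpp, 8 rose (12.0% of all rows did) and 4 fell (9.39%). Rab11fip3 rose again, to 98.5 ± 5.30 TPM (0.49 ± 0.07, adjusted p = 3.56e-06). Rab20 rose back to 73.3 ± 4.20 TPM (0.45 ± 0.10, adjusted p = 0.00185), so that its 5 values at 10 dpp (47.15 to 55.95 TPM) lay below all those at 8 and 12 dpp. Rab27b fell from 3.10 ± 0.984 to 1.09 ± 0.518 TPM (-0.98 ± 0.20, adjusted p = 8.98e-04). None of the members passed from 12 to 14 dpp, when 0.157% of all rows rose and 0.0147% fell. By limma, 0 members had an unadjusted p under 0.05 there, and the smallest adjusted p was 0.532.

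From 14 to 16 dpp, 5 rose (12.7% of all rows) and 4 fell (11.3%). Rab11fip5 rose from 20.8 ± 2.51 to 37.7 ± 6.23 TPM (0.82 ± 0.13, adjusted p = 2.68e-05), Rab11fip2 from 20.1 ± 1.90 to 29.0 ± 5.20 TPM (0.50 ± 0.11) and Rab8b from 12.1 ± 1.70 to 16.6 ± 2.13 TPM (0.43 ± 0.09). These 3 had mice of 16 dpp that all lay above those of 14 dpp. The 9 calls became 5 without mouse 1 of 16 dpp, and they split into 5 higher and 3 lower with median-of-ratios factors and 4 higher and 10 lower with quantile normalization.

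Most calls fell in the last step. From 16 to 18 dpp, 9 members rose, against 23.4% of all rows, and 29 fell, against 30.6%, and the median log2 difference was -0.31 over members and -0.11 over all rows. With median-of-ratios factors 15 rose and 18 fell (members' median -0.15, all rows 0.03), and with quantile normalization 8 rose and 34 fell (-0.36 and -0.17). Rab11fip5 rose again, to 78.4 ± 20.5 TPM (1.01 ± 0.13, adjusted p = 1.74e-06), and Rab42 from 1.32 ± 1.17 to 5.04 ± 3.32 TPM (1.31 ± 0.42, adjusted p = 0.0107). Rab29, a Golgi and lysosome GTPase, fell from 9.53 to 5.31 TPM (-0.74 ± 0.17, adjusted p = 5.46e-04). Rab7b fell from 47.8 ± 5.09 to 29.0 ± 6.39 TPM (-0.72 ± 0.11, adjusted p = 1.31e-05) beside 32.5 ± 3.55 TPM at 8 dpp and a highest mean of 57.9 ± 4.51 TPM at 12 dpp. Rab11fip3, too, fell in this step (-0.32 ± 0.07) after its highest mean at 14 dpp, 107.9 ± 5.15 TPM.

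**Figure D3:**
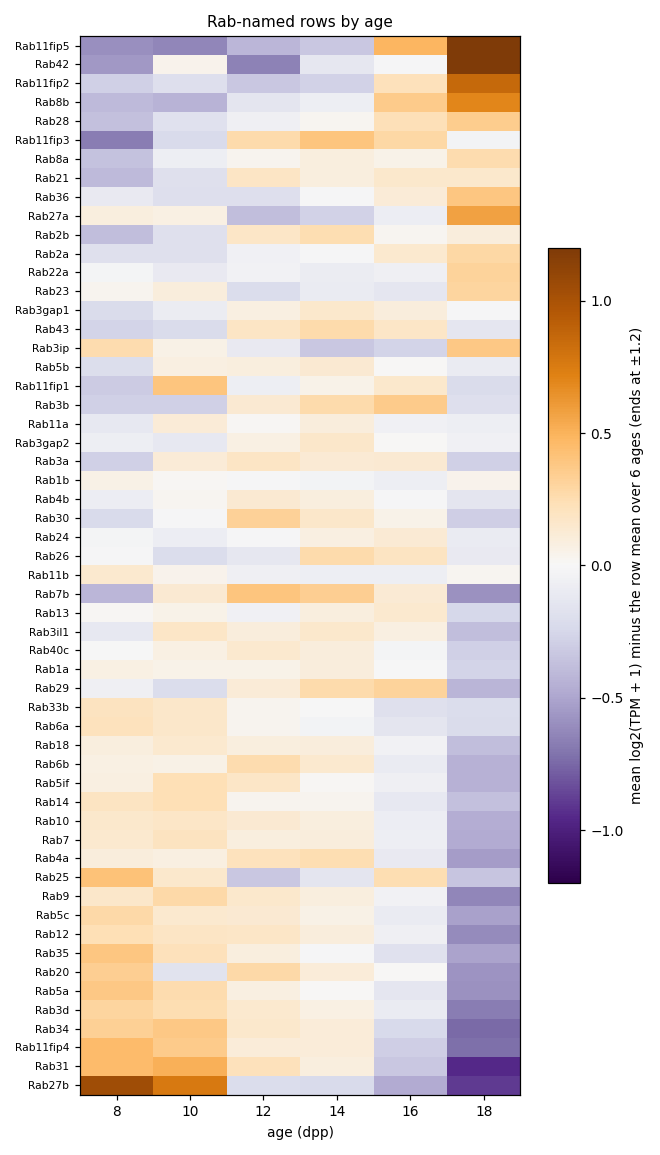
Mean log2(TPM + 1) at each age, less the row's mean over the 6 ages, for the 56 Rab-named rows in the order of their difference between 18 and 8 dpp; orange is higher and purple lower, with colours ending at ±1.2. Of the 24 rows that fell, all but Rab11b are purple at 18 dpp, while Rab7b and Rab11fip3 are highest at 12 and 14 dpp.

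Ratios between close relatives within the family were compared directly. The log2 ratio of TPM + 1 was compared in 13 paralog pairs between the 8 mice of 8 and 10 dpp and the 10 mice of 16 and 18 dpp, by a two-sided exact permutation test over 43758 arrangements with adjustment over the 13 pairs. It differed in 8, 3 of the 13 pairs being made of the same Rab5 genes, and no such share was computed for other gene pairs. The ratio of Rab22a to Rab31 went from -3.50 ± 0.14 (SD) to -2.16 ± 0.62 (exact permutation, adjusted p = 2.97e-04), and each of the 10 later mice was above all the earlier ones. Rab27a to Rab27b went from 1.21 ± 0.50 to 2.93 ± 0.78 (exact permutation, adjusted p = 3.57e-04), again with all 10 above. Rab27b averaged only 0.75 TPM at 16 dpp and 0.28 TPM at 18 dpp, so the added 1 TPM weighs heavily on the later ratio. The ratio counts all transcripts of Rab27a, and its protein-coding transcript Rab27a-201 was itself lower at 18 dpp (4.99 TPM) than at 8 dpp (8.24 TPM).

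Rab5a to Rab5b went from 0.59 ± 0.22 to -0.05 ± 0.23 (exact permutation, adjusted p = 1.49e-04) and Rab8a to Rab8b from 1.97 ± 0.22 to 1.35 ± 0.18 (the same adjusted p by exact permutation), each with all 10 later mice below. In the Rab5 trio, Rab5b thus gained on Rab5a and on Rab5c (0.48 higher for Rab5b to Rab5c, exact permutation adjusted p = 2.97e-04), and Rab5a lost a little on Rab5c (-0.16, exact permutation adjusted p = 0.0062). Rab3a gained on Rab3d (0.62, exact permutation adjusted p = 0.00119), and Rab4a lost on Rab4b (-0.35, exact permutation adjusted p = 0.0025).

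The other 5 pairs were not past the threshold. Their differences were -0.15 for Rab1a to Rab1b, 0.08 for Rab2a to Rab2b, -0.02 for Rab6a to Rab6b, 0.02 for Rab11a to Rab11b and -0.29 for Rab7 to Rab7b (exact permutation, adjusted p = 0.0562). A ratio within a sample shows unequal change and does not say which gene moved.

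**Figure D4:**
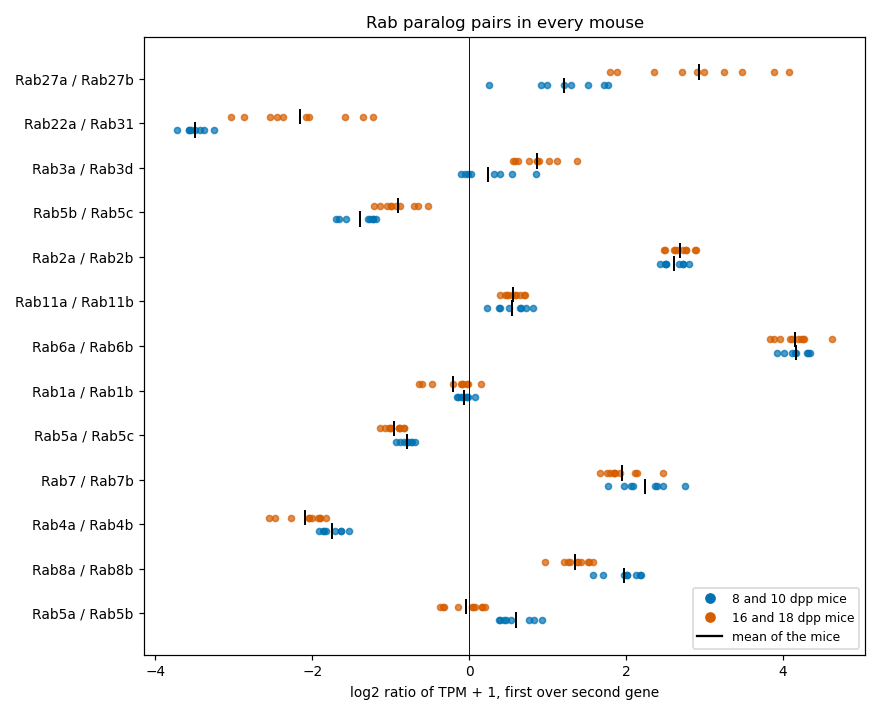
Log2 ratio of TPM + 1 of the first over the second gene of 13 paralog pairs in every mouse of 8 and 10 dpp (blue, 8 mice) and of 16 and 18 dpp (orange, 10 mice), with black bars at group means. The 2 sets do not overlap for Rab27a to Rab27b, Rab22a to Rab31, Rab8a to Rab8b and Rab5a to Rab5b.

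Transcript usage, the percentage of a gene's TPM held by a transcript, was compared between the same 8 early and 10 late mice for 104 transcripts of 33 members. It changed for 2, both of Rab27a, against 2.12% of all 26367 transcripts tested (limma, with a shift of 20 points or more and an adjusted p under 0.05). The protein-coding Rab27a-201 (chr9:73044857-73097592) went from 91.3% to 55.5% of the gene (difference -35.8 ± 7.72 points (SE), adjusted p = 0.00453). Rab27a-202, a retained intron near the 3′ end (chr9:73094833-73096415), was listed at 0 in all 8 early mice and held 40.0% in the late ones (adjusted p = 0.00293).

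In TPM, Rab27a-202 was at 10.2, 11.05, 12.27, 3.58 and 5.4 at 18 dpp and at 4.26, 1.7, 0, 0.73 and 2.9 at 16 dpp. Rab27a-201 meanwhile went from 9.91, 6.81 and 8.01 TPM at 8 dpp to 5.94, 4.85, 6.1, 4.26 and 3.81 TPM at 18 dpp. The whole-gene level of Rab27a, a GTPase that docks secretory granules, rose from 16 to 18 dpp (8.22 ± 2.59 to 13.8 ± 4.91 TPM, 0.65 ± 0.21, adjusted p = 0.0093), and at 18 dpp the non-coding Rab27a-202 averaged 8.5 TPM beside 4.99 TPM of Rab27a-201. Another gene, Gm27186, overlaps on the same strand, and the gene's mean is low: with a minimum of 10 TPM it was not tested and 0 members' transcripts passed. In 51 of the 56 members, the transcript with the highest mean at 8 dpp was also the one at 18 dpp.

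Genes that act on Rab proteins were counted in lists, 18 against 8 dpp, beside the 31.8% of all rows that rose and the 36.3% that fell. Of the 3 genes of the geranylgeranyl transferase list, Rabggtb (-0.52 ± 0.09) and Rabggta (-0.38 ± 0.09) fell and 0 rose. The larger lists lay near those shares. The exchange factors split into 13 higher and 15 lower of 36, from Mon1a (1.26 ± 0.13), part of the factor that activates Rab7, to Sh3bp5 (-1.56 ± 0.10), which activates Rab11. GTPase-activating proteins split into 11 higher and 14 lower of 40, from Grtp1 (2.34 ± 0.25) to Tbc1d9 (-2.96 ± 0.17), and effectors into 9 higher and 14 lower of 36, from Rims2 (2.26 ± 0.18) to Mical1 (-1.62 ± 0.21). For these 3 lists median-of-ratios factors gave 17 and 15, 17 and 12, and 14 and 12, so their balance turns with the scaling, and some members counted above stand in them too.

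The 6 Rab-like GTPases, relatives that mostly lack the prenyl anchor, gave 5 that rose and 1 that fell (median 1.09, beside -0.09 for all rows). Ift22, a subunit of the intraflagellar transport complex that builds cilia and flagella, went from 18.2 ± 2.70 to 138.0 ± 32.2 TPM (2.83 ± 0.18, adjusted p = 2.87e-13). Ift27, of the same complex, went from 17.8 ± 0.33 to 55.8 ± 5.36 TPM (1.59 ± 0.12), and Rabl2, which associates with that complex, from 20.5 ± 1.22 to 42.4 ± 4.80 TPM (1.01 ± 0.08). Rabl6 was the one that fell (-0.19 ± 0.08), and it did not pass with median-of-ratios factors (-0.01).

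The adult spermatocytes were set beside the 18 dpp mice by position alone, with no test, because the 2 tables were normalized apart. In 39 of the 56 members all 4 adult samples lay below all 5 mice of 18 dpp, against 53.3% of all rows, in 9 they lay above, against 22.3%, and in 8 they overlapped. By percentile rank within a sample the counts were 33 below and 14 above, against 32.8% and 36.8% of all rows. The counts thus depend on the scale, and positions of the members named next are given on both where they differ. Among the rest, Rab3gap2 was below in TPM and above by rank. Rab28, Rab2b, Rab36, Rab33b and Rab3il1 overlapped in TPM and were above by rank. Rab11b and Rab6a overlapped in TPM and were below by rank.

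The 9 members above in TPM were Rab11fip5, Rab11fip2, Rab8a, Rab8b and Rab42, which had risen by 18 dpp, and Rab1b, Rab3ip, Rab23 and Rab27a, which had not passed the threshold. By rank, Rab1b overlapped and the other 8 were above too. Rab3ip was at 85.5 ± 1.83 TPM (SD, n = 4), 2.04 times its 18 dpp mean, and the genes of the Rab8 proteins it activates were at 69.0 ± 3.52 TPM for Rab8a, all transcripts included, and 27.6 ± 0.51 TPM for Rab8b, all above every mouse of 18 dpp. Rab23 was at 43.1 ± 3.36 TPM and Rab27a at 26.2 ± 1.16 TPM. The adult table holds genes, so which Rab27a transcript this was is not analysed here. Rab2a, Rab21, Rab11fip3 and Rab3gap1, which had risen, were lower in the adult samples in TPM, but by rank Rab21 and Rab3gap1 overlapped, and the highest adult sample of Rab2a (136.44 TPM) was just under the lowest mouse of 18 dpp (137.2 TPM). Rab11fip3 was at 19.1 ± 2.06 TPM, against 79.9 ± 5.17 TPM at 18 dpp.

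At the other end, 13 members had an adult mean more than 10 times below that at 18 dpp, as did 19.7% of all rows. Rab7b stood out, with 24.9, 26.49, 25.91, 27.29 and 40.3 TPM at 18 dpp and 0, 0.22, 0.1 and 0.68 TPM in the adult samples, a ratio of 0.0086. Rab34 went from 55.8 to 2.04 ± 0.74 TPM, Rab12 from 58.7 to 3.55 ± 0.66 TPM, Rab31 from 130.9 to 8.97 ± 0.94 TPM and Rab3a from 15.1 to 1.04 ± 0.17 TPM. The others were Rab4a, Rab9, Rab25, Rab26, Rab27b, Rab29, Rab30 and Rab3d, and Rab25 was listed at 0 in all 4 samples. Summed Sertoli markers were also lower in the adult samples (3638 TPM at 18 dpp and 364 TPM in adults, means), and 6 spermatid markers were higher (6.13 to 17.0 TPM and 872 to 1189 TPM). The part of either in these values was not tested.

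**Figure D5:**
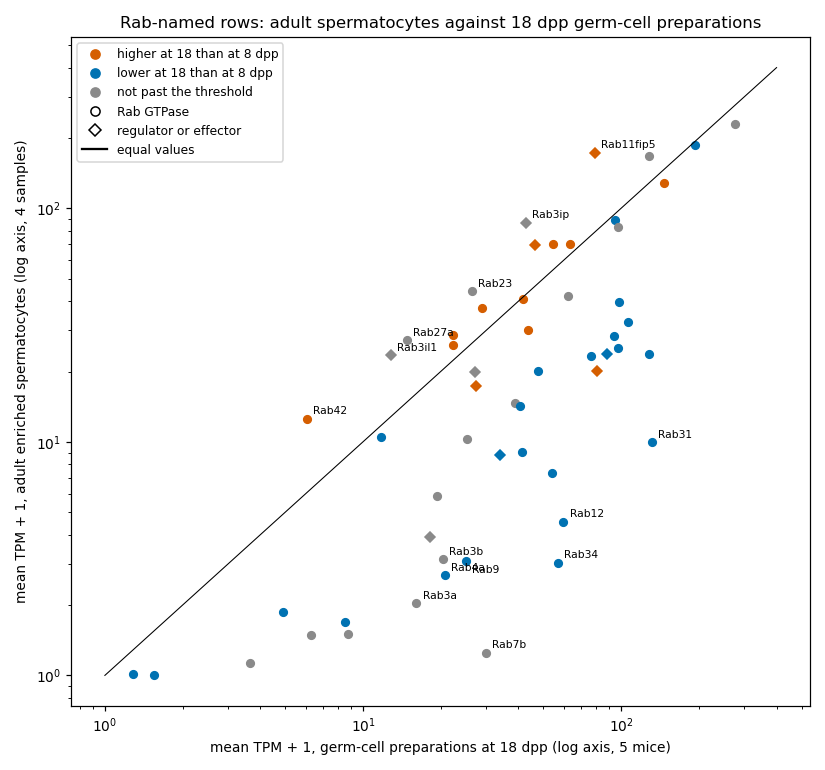
Mean TPM + 1 in adult enriched spermatocytes (4 samples) against that in germ-cell preparations of 18 dpp (5 mice), both on log axes, for the 56 Rab-named rows; colour gives the call between 18 and 8 dpp and the line marks equal values. Rab11fip5, Rab3ip and Rab42 lie over 2 times above the line, and Rab7b (29.0 and 0.25 TPM) lies farthest below it.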

How the data were processed

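RNA of germ cells from 28 juvenile mice of 6 ages and of 4 adult samples of STA-PUT-enriched spermatocytes had been sequenced. Per the labels and the study's methods, the authors aligned reads with Bowtie 1.0.0 to a GRCm38 transcriptome (Ensembl with noncoding and piRNA precursor transcripts) and estimated abundance with RSEM 1.2.8. The deposited values are TPM, the length-corrected share of each transcript in its library. The juvenile gene table held rows with at least 3 TPM in 1 mouse, stored as exp(log2(TPM + 1)) - 1, and was converted back to TPM; 80 of its 20368 genes, Rab11fip4 among them, differed by over 0.2 TPM from the sum of their transcripts. No column of per-sample values was left unused (0), and the authors' own staging of the mice was not used. The adult table was normalized apart, so no test crosses the tables. TPM keeps no read counts, so depth is unknown and no counting interval is given. Strandedness is not given in the sources used here, so genes that overlap, such as Rab10 and Rab26 with their antisense genes, are uncertain. Index sequences of 8, 10 and 12 dpp were reused at 14, 16 and 18 dpp. No label names a sequencing pool, but if those sets were separate pools, pool and age cannot be told apart between them.

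Log2(TPM + 1) of all 20368 rows was fitted with limma 3.58.1 (R 4.3.3) in 1 model of 6 ages with a mean-variance trend, and p-values were adjusted by Benjamini-Hochberg over all rows. Differences are on that scale, which understates changes of low genes. Errors of means are SD over mice and those of log2 differences SE. Transcript usage was fitted with limma on percentages of gene TPM, for genes averaging at least 3 TPM with at least 2 transcripts of 1 TPM or more. Paralog ratios were tested by exact permutation (Python 3.11.15, numpy 2.4.6, pandas 2.3.3, scipy 1.17.1, matplotlib 3.10.9). Nothing says that mice of 1 age came from separate litters, so p-values measure the spread between these mice. For 18 against 8 dpp, data of 20368 genes were simulated. Of 200 genes changed by a log2 value of 1, 88.5% were recovered, and 7.81% of calls were unchanged genes. For usage, 98% of 100 moved transcripts were recovered. The simulated noise was independent between genes, far fewer genes changed than were called in the data, and no low gene was changed. These rates therefore need not hold for the real comparison or for low members. Promoters came from RefSeq (GRCm38.p6).

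The members and gene lists were chosen with earlier results of these data known. Members with full values were the 5 largest rises and falls at 18 against 8 dpp, the 4 most abundant, those called at 10 against 8 dpp or 14 against 12 dpp, the 3 largest of the other steps, those with a called transcript, paralogs and X-linked members; further members are named by role. Alternatives were the pseudocount, scaling, filter, prior variance, ages in the model, mouse number as covariate or block, mice 1 to 3 alone, summed transcripts and leaving out each mouse. The result of 1 further list of genes that act on Rab proteins is not reported here.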

Additional observations from a re-analysis of the deposited data

Results flagged for a closer look

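Of 210 groups of 4 or 5 samples examined over the 35 members given in detail, 16 held 1 sample that stood apart from the rest of its group by Dixon's ratio, in 13 members; chance alone gives about 1 in 20 groups. At 10 dpp they were Rab20 in mouse 3 (47.15 TPM, others 53.57 to 55.95), Rab3a in mouse 4 (14.02 TPM, others 20.51 to 23.15) and Rab5a in mouse 3 (102.51 TPM, others 92.52 to 94.2). At 14 dpp they were Rab27b in mouse 2 (0.56 TPM, others 1.11 to 1.23), Rab1a in mouse 6 (143.63 TPM, others 117.48 to 122.54) and Rab5c in mouse 1 (151.54 TPM, others 156.52 to 157.49). At 16 dpp they were Rab8b in mouse 1 (20.26 TPM, others 14.93 to 16.29), Rab20 in mouse 3 (81.17 TPM, others 52.5 to 58.76) and Rab40c in mouse 3 (62.75 TPM, others 53.35 to 54.8). At 18 dpp it was Rab7b in mouse 5 (40.3 TPM, others 24.9 to 27.29). In the adult samples these were Rab42 in sample 1 (14.35 TPM, others 10.42 to 10.98), Rab27b in sample 4 (0.07 TPM, others listed at 0), Rab7 in sample 2 (21.23 TPM, others 23.24 to 23.53), Rab11fip3 in sample 3 (15.99 TPM, others 19.93 to 20.23), Rab3a in sample 2 (1.29 TPM, others 0.94 to 0.96) and Rab6a in sample 3 (91.71 TPM, others 86.33 to 87.08).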

How the results depend on the processing

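The counts at 18 against 8 dpp stayed within 1.5 times of 13 higher and 24 lower under every alternative run, with 11 to 15 higher and 22 to 26 lower when 1 mouse was left out. At 10 against 8 dpp the 4 calls became 2 with only those ages in the model, 2 with the mouse number as a block, and 1 to 4 when 1 mouse was left out (2 without mouse 1, 1 without mouse 2 and 1 without mouse 3 of 8 dpp). At 16 against 14 dpp the 9 calls became 14 with quantile normalization and 5 to 13 with 1 mouse left out (5 without mouse 1 of 16 dpp). The usage calls were 0 for genes of at least 10 TPM, where Rab27a was no longer tested. By percentile rank, 14 members were above 18 dpp in the adult samples, not 9.

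Mouse numbers did not pair the samples: deviations of same-numbered mice correlated by 0.0054 on average (-0.248 to 0.253, 57 pairs), and 6 of 28 mice correlated best with their own number. With the block, 13 members were higher and 24 lower at 18 against 8 dpp. The block turned the sign of Rab3a (-0.063) and Rab1b (0.018), neither called.

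Other reversals were of values near 0. The paralog ratio of Rab6a to Rab6b became 0.039 with pseudocount 0.1 and 0.0905 for 8 against 18 dpp alone (-0.074 to 0.014 with 1 mouse left out), that of Rab2a to Rab2b -0.0087 for 8 against 18 dpp alone, and that of Rab11a to Rab11b ran from -0.031 to 0.054 with 1 mouse left out. The log2 difference of Rab11a became -0.0021 with quantile normalization. Median-of-ratios factors turned Rab11b to 0.047, Rab1b to 0.16 and Rab4b to 0.12. Rab3a became -0.13 with quantile normalization, -0.073 with the covariate and -0.25 with mice 1 to 3 alone, where Rab1b was 0.031. With 1 mouse left out, Rab3a ran from -0.10 to 0.16, Rab1b from -0.052 to 0.022 and Rab4b from -0.12 to 0.0024. Except where stated, the cause was not tested. Depth is unknown, so low members such as Rab42, Rab27b and Rab25 have a precision that could not be computed.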
